A study of Mus musculus with 26 samples.

Results

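Propranolol-treated libraries labelled lung monocytes were compared with propranolol-treated whole lung libraries, gene by gene, to describe what the sorted material held more and less of. The members were chosen by their labels alone: 4 monocyte libraries and 5 whole lung libraries, 9 of the 26 libraries in the series. All came from C57BL/6 mice, an inbred laboratory strain, injected into a vein with B16F10 melanoma cells, a mouse tumour line that forms metastases in the lung. Mice in both groups received propranolol, a blocker of β-adrenoceptors. Monocytes had been isolated from such lungs by flow sorting, with no gate given in the labels, and whole lung was used as it was. The untreated counterparts, 4 monocyte and 5 lung libraries from tumour-bearing mice of the same strain without propranolol, served for 1 further comparison. The labels give no age, dose or pooling and do not say that libraries came from separate animals, so a p-value here reflects no more than the scatter of these libraries, which may be technical. Sorting was done for every monocyte library and no lung library, so cell identity and the handling of cells during isolation cannot be told apart.

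Monocytes are blood phagocytes of the myeloid lineage that enter tissue and turn into macrophages or dendritic cells. Classical monocytes of the mouse carry Ly6C and the chemokine receptor CCR2, while non-classical monocytes patrol the vessel wall and depend on the orphan nuclear receptor NR4A1. Both carry the receptor of colony-stimulating factor 1, encoded by Csf1r, and sense bacterial products with the help of CD14. Such cells gather in lung metastases, where they meet endothelium, epithelium, other leukocytes and tumour cells.

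Total counts ran from 29650148 to 43447855 in treated lung and from 36277687 to 46407803 in the treated monocyte libraries. The monocyte libraries formed 2 close pairs. Replicates 1 and 2 differed by a chi-square of 3.71 per degree of freedom and replicates 3 and 4 by 3.52, against 23.3 to 35.6 for monocyte libraries of different pairs and 12.9 to 191 among the lungs. No pair agreed within sampling noise, but repeat libraries of 1 pool could differ that much, so this does not show 4 separate samples. Each library was kept as a sample. Values with each close pair summed into 1 library are given beside named genes whose call was then lost. The first principal component held 81.4% of the variance and separated the 4 monocyte libraries (52.4 to 55.5) from the 5 lungs (−54.4 to −33.4).

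Of 19543 genes tested, 4953 (25.3%) were higher and 6273 (32.1%) lower in the monocyte libraries at an adjusted p under 0.05, and the median log2 difference over all of them was −0.06. By more than 2-fold, 957 genes (4.9%) were higher and 1652 (8.45%) lower. With plain library totals in place of TMM scaling (trimmed mean of M-values), which moved that median to −0.23, the split was 3329 higher and 8055 lower. With the close libraries summed, 3979 genes were higher and 5067 lower. Levels below are CPM (counts scaled to library size) after TMM scaling, differences are log2 of monocyte over lung, and values per library are in replicate order.

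The 3 genes that mark monocytes differed in how strongly they separated the groups. Cd14 (ENSMUSG00000051439), the co-receptor for bacterial lipopolysaccharide, stood at 23.6, 28, 26.1, 26.1 and 20.7 CPM in the lungs and at 620.5, 643, 757 and 754 CPM in the monocyte libraries. Every monocyte library was far above every lung, and the log2 difference was 4.80 ± 0.11 (SE, adjusted p = 4.69e-10). Csf1r (ENSMUSG00000024621), the receptor that keeps monocytes and macrophages alive, stood at 176, 196, 174, 187 and 133 CPM in lung and 543, 569, 699.6 and 735 CPM in the monocyte libraries, a difference of 1.88 ± 0.13 (SE, adjusted p = 7.53e-07). Ccr2 (ENSMUSG00000049103), the receptor that draws monocytes out of marrow and blood, stood at 73.2, 99.9, 102, 91.6 and 53.7 CPM in lung and 110.3, 106, 129 and 132 CPM in the monocyte libraries. The groups did not overlap for Ccr2, but the lowest monocyte library lay just above the highest lung, and the difference was 0.50 ± 0.17 (SE, adjusted p = 0.0257). That call was lost in 7 alternatives, with an adjusted p of 0.0916 when close libraries were summed, 0.111 with plain totals, 0.0737 with the stricter filter, 0.0678 without lung replicate 1, 0.0648 and 0.0683 without monocyte replicates 3 and 4 one at a time, and 0.214 without both. Lyz2, lysozyme of myeloid and alveolar type 2 cells, did not pass the test, at 2938 to 4286 CPM in lung and 3549 to 4346 CPM in the monocyte libraries (adjusted p = 0.43).

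**Figure D1:**
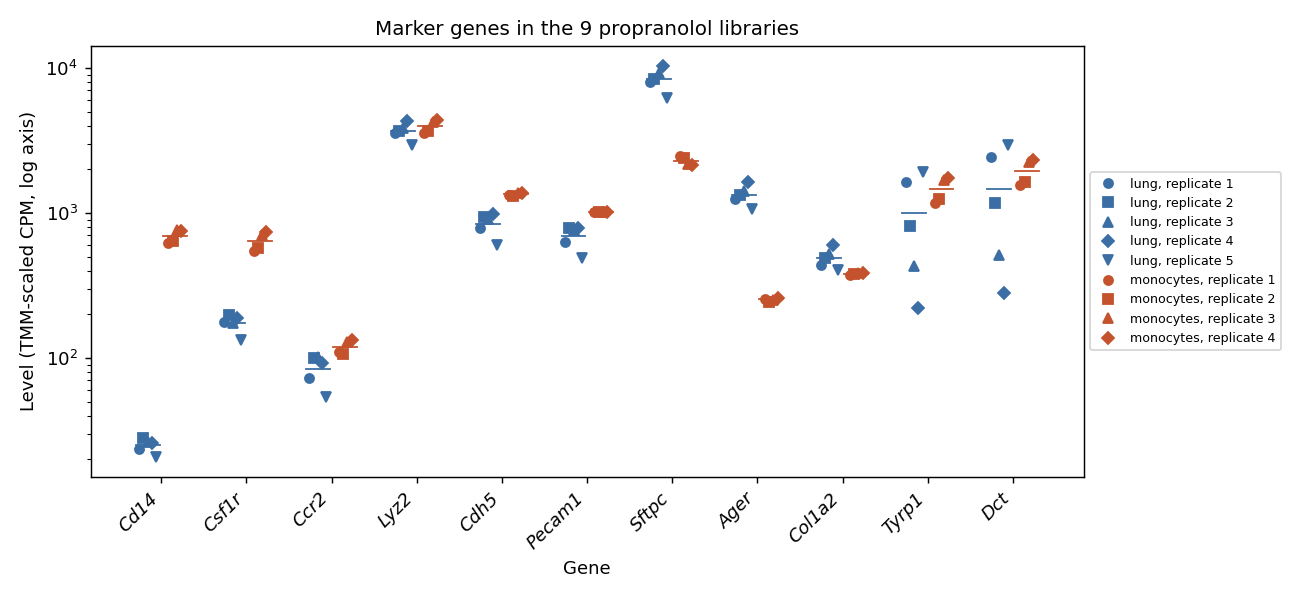
Level of 11 marker genes (TMM-scaled CPM, log axis) in each of the 5 lung (blue) and 4 monocyte (orange) libraries with propranolol. Symbols give the replicate number and bars the group mean. Cd14 and Csf1r are separated widely, Ccr2 narrowly, Cdh5 and Pecam1 of endothelium are higher in the monocyte libraries, and Tyrp1 and Dct of melanoma cells overlap.

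Transcripts of defining markers of other cells were present in the sorted libraries. Sftpc, a surfactant protein of alveolar type 2 cells, stood at 2457, 2391, 2177 and 2140 CPM there, Scgb1a1, the main secretory protein of club cells, at 2667, 2771, 3582 and 3623 CPM, and Cdh5, the cadherin of endothelial junctions, at 1320, 1317, 1369 and 1378 CPM. None of these was near 0, and "monocyte library" below means a library with that label. In bulk samples fewer cells of a type and less RNA per cell cannot be told apart.

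Genes of the monocyte lists were mostly higher. The classical list includes Cd14, Csf1r and Ccr2, so its counts and median are not independent of them. Of the 17 genes in the classical monocyte list 14 were higher and 2 lower (12 and 2 with close libraries summed), with a median log2 difference of 1.88 against −0.06 for all genes. Ly6c2, one of the genes behind the Ly6C antigen, was chosen after its values were seen and stood at 9.48 to 17.2 CPM in lung and 54.6 to 65.4 CPM in the monocyte libraries (2.15 ± 0.15 SE, adjusted p = 8.65e-07). Its near copy Ly6c1, known from endothelium, makes the split of reads between them uncertain. Thbs1, the matrix protein thrombospondin-1, stood at 201, 208, 266, 261 and 219.7 CPM in lung and at 3032, 3080, 3284 and 3291 CPM in the monocyte libraries, a difference of 3.78 ± 0.11 (SE, adjusted p = 1.68e-09). Fn1, fibronectin, differed by 1.47 ± 0.10 (SE, adjusted p = 8.17e-07). The 2 members that were lower were Hp, the haemoglobin-binding protein haptoglobin, at −1.11 ± 0.17 (SE, adjusted p = 0.000225), and Mgst1, a glutathione transferase, at −0.85 ± 0.13 (SE, adjusted p = 0.000203). Lung epithelium also makes haptoglobin, and Hp was in the airway secretory list as well.

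All 17 non-classical monocyte genes were higher, with a median of 2.13 (16 with close libraries summed). Nr4a1, which these cells require, stood at 105, 94.3, 88.9, 76.7 and 118 CPM in lung and 800.1, 804, 855 and 861 CPM in the monocyte libraries, a difference of 3.10 ± 0.12 (SE, adjusted p = 1.09e-08), and it also belongs to the immediate early genes described below. Itgal, the α chain of the leukocyte integrin LFA-1, differed by 2.31 ± 0.12 (SE, adjusted p = 8.87e-08) and Ace, angiotensin-converting enzyme, by 0.70 ± 0.12 (SE, adjusted p = 0.00058). Ace and Cd36, a fatty acid receptor that differed by 0.46 ± 0.13 (SE, adjusted p = 0.00996), are also made by lung endothelium, and Cd36 lost its call with close libraries summed (adjusted p = 0.0542), with plain totals (0.0698) and without monocyte replicates 3 and 4 (0.0689). The pan-myeloid list had 21 of 22 genes higher and 1 lower, with a median of 1.99. Cebpb, a transcription factor of activated myeloid cells, differed by 2.92 ± 0.11 (SE, adjusted p = 1.01e-08) and Itgb2, the β chain of leukocyte integrins, by 2.11 ± 0.09 (SE, adjusted p = 2.65e-08). The member that was lower was Cebpa, a related factor that alveolar type 2 cells also express, at 106 to 178 CPM in lung and 88.8 to 102 CPM in the monocyte libraries (−0.66 ± 0.13 SE, adjusted p = 0.00135).

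Genes of the phagocyte machinery were mostly higher too. All 7 genes of the NADPH oxidase, which makes the oxidative burst, were higher, with a median of 1.76. Its catalytic subunit Cybb stood at 150.2 to 187 CPM in lung and 593 to 772 CPM in the monocyte libraries (1.98 ± 0.10 SE, adjusted p = 7.62e-08), and Rac1, the widely expressed member, differed least at 0.51 ± 0.06. Of 18 Fc and phagocytic receptors 17 were higher, of 10 inflammasome genes 10, of 19 pathogen sensors 16 with Tlr5, the flagellin receptor, lower, and of 18 lysosome genes 16. Nlrp3, the sensor of the best known inflammasome, stood at 9.7, 9.94, 8.65, 9.05 and 6.03 CPM in lung and 122, 122, 139.7 and 146 CPM in the monocyte libraries, a difference of 3.94 ± 0.14 (SE, adjusted p = 7.06e-09). Tlr2, a receptor for bacterial lipoproteins, differed by 2.74 ± 0.10, Casp4, the caspase that senses lipopolysaccharide inside cells, by 1.16 ± 0.08 and Gsdmd, the pore former of pyroptosis, by 0.71 ± 0.10. Psap, the precursor of lysosomal saposins, differed by 1.51 ± 0.10 and Ctsb, a lysosomal protease, by 1.38 ± 0.18. The lower lysosome gene was Npc2, a cholesterol carrier, at −0.37 ± 0.09, a call lost with close libraries summed (adjusted p = 0.0562) and without monocyte replicates 1 and 2 (0.067). The call of Tlr5 (−0.50 ± 0.16) was lost in 7 alternatives, with an adjusted p of 0.0771 and 0.0793 without lung replicates 2 and 3, 0.0627, 0.0702 and 0.051 without monocyte replicates 1, 2 and 3, 0.114 with close libraries summed and 0.194 without monocyte replicates 1 and 2 together. Both antigen presentation routes were higher as well, with 17 of 17 MHC class I genes (median 0.82) and 9 of 10 MHC class II genes (median 1.35). H2-Ab1, a chain of the class II molecule, stood at 451, 486, 562, 631 and 363 CPM in lung and 1440, 1464, 1423 and 1437 CPM in the monocyte libraries (1.53 ± 0.14 SE, adjusted p = 5.18e-06). B2m, the light chain of class I, differed by 1.04 ± 0.08 and H2-K1, a heavy chain, by 0.91 ± 0.11. B cells, dendritic cells and alveolar type 2 cells make class II transcripts too. All 16 B cell genes were higher in the monocyte libraries (median 1.10), with summed levels of 470.5 to 652 CPM in lung and 1136 to 1251 CPM in the monocyte libraries, and their part in the class II result was not tested. Cd79a, of the B cell receptor, differed by 1.62 ± 0.11 and Ighm, the heavy chain of IgM, by 1.14 ± 0.22.

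**Figure D2:**
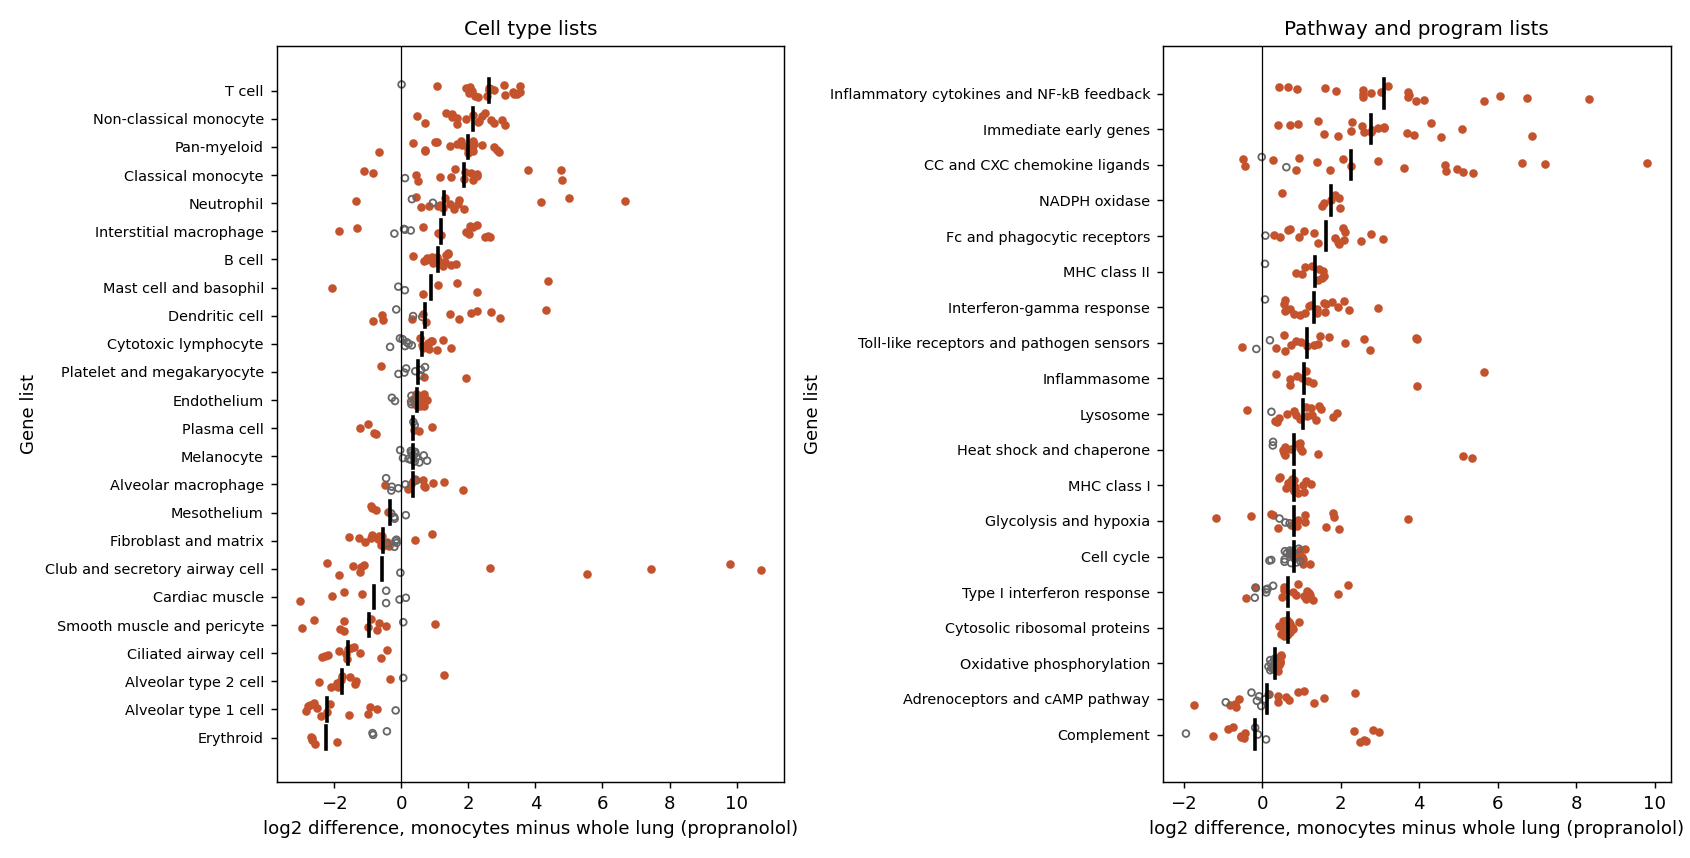
The log2 difference (monocyte libraries minus whole lung, both with propranolol) of every tested member of the cell type lists (left) and of the pathway lists (right). Filled points passed the test at an adjusted p under 0.05, open points did not, and bars mark each list's median. The inflammatory and immediate early lists lie wholly above 0, the alveolar type 1 list wholly below, and the melanocyte list holds open points alone.

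Genes of acute activation separated the groups widely. Immediate early genes are transcribed within minutes of a stimulus without new protein synthesis, and all 21 were higher in the monocyte libraries, with a median of 2.78. Fos, a subunit of the transcription factor AP-1 chosen after its values were seen, stood at 47.4, 47.4, 30.8, 27.4 and 35.6 CPM in lung and 882, 874, 886 and 892 CPM in the monocyte libraries, a difference of 4.55 ± 0.17 (SE, adjusted p = 1.09e-08). Its relative Fosb stood at 6.55, 6.71, 7.56, 6.88 and 6.32 CPM in lung and 858, 846, 752 and 749 CPM in the monocyte libraries (6.88 ± 0.09 SE, adjusted p = 1.14e-11). The 4 monocyte libraries lay close together and far above the highest lung for both genes. Junb, another AP-1 subunit, differed by 3.86 ± 0.11 (SE, adjusted p = 1.8e-09), Zfp36, which destabilises cytokine transcripts, by 4.31 ± 0.10 (SE, adjusted p = 5.37e-10), Jun by 1.92 ± 0.12 and Dusp1, a phosphatase of MAP kinases, by 2.56 ± 0.12. Heat shock and chaperone genes were higher in 12 of 14 members with a median of 0.83. Hspa8, the constitutive chaperone, differed by 0.97 ± 0.12 and Hspa5, the chaperone of the endoplasmic reticulum, by 0.98 ± 0.10. Among values looked up after the results were known, the inducible chaperone Hspa1a stood at 2.17 to 4.61 CPM in lung and 115 to 150 CPM in the monocyte libraries (5.35 ± 0.24 SE, adjusted p = 4.53e-08), though reads cannot be told from those of its near copy Hspa1b.

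Inflammatory cytokines and the feedback genes of NF-kB, the transcription factor that drives them, were higher in 20 of 20 members, with a median of 3.11. Il1b, interleukin-1β, stood at 12.9, 15.5, 9.82, 8.1 and 9.91 CPM in lung and 537, 535, 594 and 590.3 CPM in the monocyte libraries, a difference of 5.65 ± 0.18 (SE, adjusted p = 3.96e-09). Il6, interleukin-6, was at 0.0945 to 0.222 CPM in lung and 53.8, 52.9, 53 and 54 CPM in the monocyte libraries (8.33 ± 0.15 SE, adjusted p = 7.48e-11). Nfkbia, the inhibitor that NF-kB itself induces, stood at 97.7, 105, 109, 114 and 87.7 CPM in lung and 612, 616, 607 and 611 CPM in the monocyte libraries (2.58 ± 0.08 SE, adjusted p = 2.74e-09). Chemokines, the proteins that draw in leukocytes, were higher in 17 of 21 tested members and lower in 2 (1 with close libraries summed), with a median of 2.26. Cxcl2, which attracts neutrophils, stood at 0.693, 0.256, 0.174, 0.177 and 0.287 CPM in lung and 277, 259, 279 and 278 CPM in the monocyte libraries, a difference of 9.82 ± 0.24 (SE, adjusted p = 6.23e-10). Cxcl1, of the same subfamily, stood at 0.523 to 0.79 CPM in lung and 88 to 111 CPM in the monocyte libraries (7.20 ± 0.14 SE, adjusted p = 1.3e-10). The lower members were Cxcl14 (−0.49 ± 0.12), a chemokine of epithelium and stroma, and Ccl21a (−0.44 ± 0.16), a chemokine of lymphatic vessels, whose calls were lost in 2 and 14 alternatives (adjusted p up to 0.0763 and 0.17). Ccl21a lost its call with close libraries summed (0.17) and without any single library other than lung replicate 5 (adjusted p 0.0646 to 0.109). Interferon-γ response genes were higher in 19 of 20 members (median 1.32) and type I interferon response genes in 14 of 22, with 2 lower (median 0.67). Irf1, an early transcription factor of both responses, differed by 2.23 ± 0.12, while Ifit2, an antiviral protein, was lower (−0.40 ± 0.08), as was Ifi27 (−0.19 ± 0.05), whose call was lost in 7 alternatives, among them close libraries summed (adjusted p = 0.128) and lung replicate 1, 2 or 3 left out (0.0522, 0.0536 and 0.0562). Summed levels of the endothelial and T cell lists, given below, were also higher in the monocyte libraries, and their part in these results was not tested.

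The promoters of 5 of these genes are shown because they share a match to the NF-kB motif and their transcripts were higher together. The sequences are the 250 bases before the annotated gene start from RefSeq (GRCm38.p6), matched by symbol, written 5′ to 3′ on the gene's strand in lower case with matches on either strand to the NF-kB motif and to the AP-1 motif TGANTCA in capitals. The NF-kB matches are the capitals that begin with GGGA, or GGAA on the other strand, and the AP-1 match is the TGA run in Il6.
Cxcl1 (chr5:90890995-90891244, plus strand): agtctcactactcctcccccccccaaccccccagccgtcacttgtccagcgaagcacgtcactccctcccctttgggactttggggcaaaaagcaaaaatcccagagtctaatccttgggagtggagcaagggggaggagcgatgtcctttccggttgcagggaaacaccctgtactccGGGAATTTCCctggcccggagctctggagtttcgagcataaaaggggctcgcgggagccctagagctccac
Cxcl2 (chr5:90903649-90903898, plus strand): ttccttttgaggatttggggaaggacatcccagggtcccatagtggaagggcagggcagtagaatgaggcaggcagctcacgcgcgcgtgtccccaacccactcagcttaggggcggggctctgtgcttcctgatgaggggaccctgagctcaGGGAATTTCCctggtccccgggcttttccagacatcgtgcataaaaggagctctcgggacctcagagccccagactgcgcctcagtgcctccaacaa
Cxcl3 (chr5:90785851-90786100, plus strand): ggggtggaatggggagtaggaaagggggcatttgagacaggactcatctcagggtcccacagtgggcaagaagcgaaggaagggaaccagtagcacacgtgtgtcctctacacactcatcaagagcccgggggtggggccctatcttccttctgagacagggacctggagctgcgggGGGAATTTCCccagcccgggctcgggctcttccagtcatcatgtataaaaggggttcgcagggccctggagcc
Il6 (chr5:30012864-30013113, plus strand): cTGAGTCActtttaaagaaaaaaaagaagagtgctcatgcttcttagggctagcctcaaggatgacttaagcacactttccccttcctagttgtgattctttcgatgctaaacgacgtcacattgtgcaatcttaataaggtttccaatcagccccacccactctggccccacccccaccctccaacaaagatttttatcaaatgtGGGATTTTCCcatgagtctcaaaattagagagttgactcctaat
Nfkbia (chr12:55492648-55492897, minus strand): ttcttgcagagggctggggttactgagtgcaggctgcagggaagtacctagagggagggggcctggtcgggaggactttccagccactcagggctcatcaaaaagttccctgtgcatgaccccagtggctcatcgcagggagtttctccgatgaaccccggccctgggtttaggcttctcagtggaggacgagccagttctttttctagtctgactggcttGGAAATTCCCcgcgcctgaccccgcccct
Cxcl1, Cxcl2 and Cxcl3 are neighbouring relatives, so their promoters are not independent. The NF-kB match occurred in 112 of 27025 genes with a promoter in the table (0.414%), in 2 of 16 such genes of the inflammatory list (12.5%), in 3 of 15 of the chemokine list (20%) and in 0 of 17 immediate early genes. The AP-1 match, which overlapped no NF-kB match in these promoters, occurred in 7.82% of all genes, in 5 of 16 inflammatory genes (31.2%), in 2 of 15 chemokine genes (13.3%) and in 0 of 17 immediate early genes. The cAMP response element TGACGTCA occurred in 1.77% of all genes and in 2 of 17 immediate early genes (11.8%), Btg2 and Dusp1. A match describes letters in this window and is not a site of binding, and no factor's binding was measured. Cxcl3, chosen after its values were seen, stood at 0.177 to 0.598 CPM in lung and 26.6 to 30.2 CPM in the monocyte libraries (6.61 ± 0.27 SE, adjusted p = 2.3e-08).

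**Figure D3:**
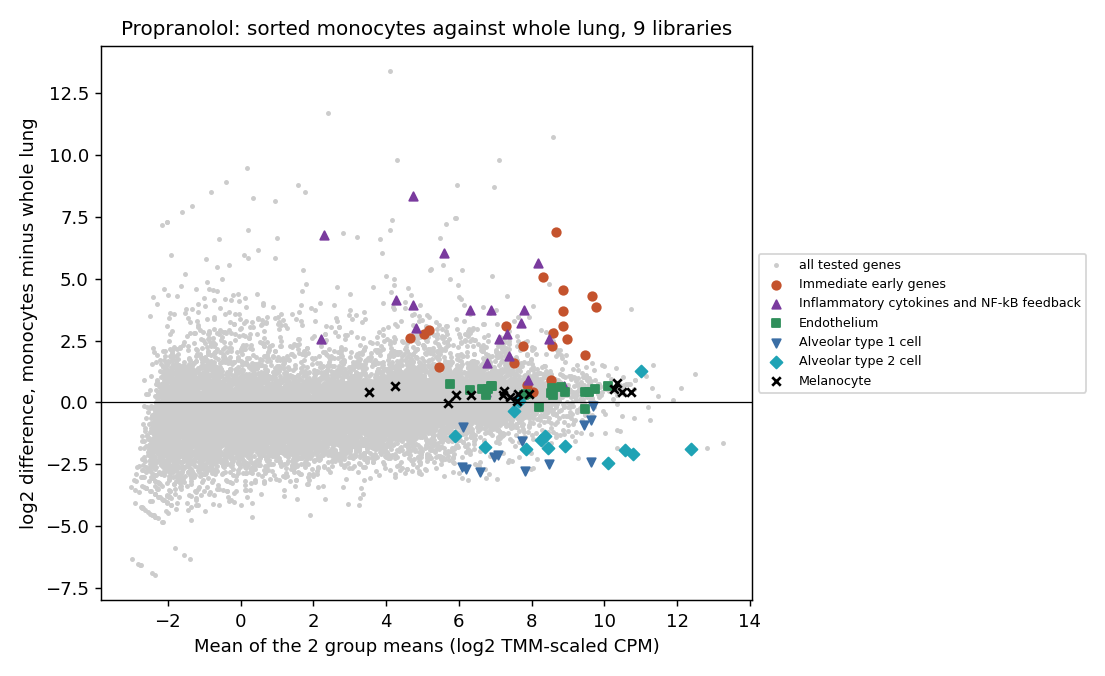
Each point is 1 of the 19543 tested genes, with the mean of both group means (log2 TMM-scaled CPM) on the horizontal axis and the log2 difference, monocyte libraries minus whole lung, on the vertical axis. Coloured symbols mark 6 lists. Most immediate early and inflammatory genes lie high above 0, most alveolar type 1 and type 2 genes below it, and most endothelial genes just above it.

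Lymphocyte and thymocyte transcripts were also higher in the sorted libraries, and unevenly so. The T cell list had 19 of 20 genes higher with a median of 2.61. The member that did not pass, Foxp3 of regulatory T cells, was named after its value was seen (0.01). The summed level of the list was 145 to 225 CPM in lung and 464 to 2212 CPM in the monocyte libraries. Cd8a, the co-receptor of cytotoxic T cells, stood at 10.2, 12.9, 11.3, 12.2 and 6.41 CPM in lung and 194, 169, 46.7 and 30.9 CPM in the monocyte libraries (3.37 ± 0.51 SE, adjusted p = 0.000224). Cd4, the co-receptor of helper T cells, stood at 149, 130.2, 44.9 and 34.8 CPM and Lck, the kinase of both co-receptors, at 211, 182, 63 and 44.4 CPM in the monocyte libraries, against 7.51 to 11.9 and 12.3 to 22.5 CPM in lung. Replicates 1 and 2 held the high values and replicates 3 and 4 the low ones in each case. Genes of antigen receptor assembly showed the same division, and the lineage their RNA came from was not tested. Rag1, a subunit of the recombinase that assembles antigen receptor genes, stood at 0.252, 0.192, 1.09, 0.821 and 0.383 CPM in lung and 451, 388, 93.5 and 56.3 CPM in the monocyte libraries (8.72 ± 0.79 SE, adjusted p = 5.55e-06). Dntt, the polymerase that adds bases at those joints, stood at 0.189, 0.128, 0.218, 0.577 and 0.191 CPM in lung and 237, 181, 44.1 and 27.8 CPM in the monocyte libraries (8.79 ± 0.81 SE, adjusted p = 6.39e-06). Ptcra, the pre-T cell receptor chain of thymocytes, was looked up for this reason after the values were seen. It was listed at 0.0315, 0, 0.0435, 0 and 0 CPM in lung and 4.36, 3.72, 0.651 and 0.484 CPM in the monocyte libraries. Without monocyte replicates 1 and 2 the T cell count was 19 and the median 1.35, and without replicates 3 and 4 the count was 19 and the median 3.31. The part of T lineage RNA in other results was not tested.

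Among other leukocytes, 15 of 18 neutrophil genes were higher (median 1.27, 9 without monocyte replicates 1 and 2), with S100a9, a calcium-binding alarmin, at 25.1 to 46.4 CPM in lung and 96.9 to 137 CPM in the monocyte libraries. Csf3r, the receptor that drives neutrophil production, differed by 1.23 ± 0.14 and Ltf, lactoferrin of neutrophil granules and glandular epithelium, by 4.17 ± 0.24. The member that was lower was Lcn2, lipocalin-2, which alveolar type 2 cells also make (−1.35 ± 0.08). Alveolar macrophage genes were higher in 10 of 17 members (median 0.35, 6 with plain totals) and interstitial macrophage genes in 11 of 17 (median 1.18). Mrc1, the mannose receptor of macrophages, differed by 0.94 ± 0.10, and the lower alveolar macrophage gene was Krt79, a keratin (−0.47 ± 0.15), whose call was lost in 7 alternatives. The adjusted p of Krt79 was 0.115 with close libraries summed, 0.144 without monocyte replicates 1 and 2 together, 0.0634 without replicates 3 and 4 together, 0.0512 and 0.0634 without lung replicates 2 and 3, and 0.0521 and 0.051 without monocyte replicates 1 and 2 one at a time. Apoe, the lipid carrier of tissue macrophages, differed by 1.09 ± 0.12. In the same list Cbr2, a carbonyl reductase abundant in lung epithelium, and Gas6, a ligand of phagocytic receptor kinases, were lower (−1.86 ± 0.17 and −1.32 ± 0.12). Of 16 genes in the list of dendritic cells 10 were higher and 3 lower. Cd83, a marker of their maturation that other activated leukocytes share, differed by 4.31 ± 0.12. Ccr7, the receptor for lymph node homing, stood at 14.5 to 22.7 CPM in lung and 141 to 152 CPM in the monocyte libraries (2.94 ± 0.12 SE, adjusted p = 1.93e-08). The 3 that were lower were Xcr1, a chemokine receptor (−0.83 ± 0.26), Clec9a, a receptor for dead cells (−0.53 ± 0.16), and Itgae, an integrin chain that T cells share (−0.58 ± 0.17). Xcr1 lost its call in 4 alternatives, with an adjusted p of 0.0926 with close libraries summed, 0.172 without monocyte replicates 3 and 4 together, 0.059 without lung replicate 3 and 0.0582 without monocyte replicate 4. Clec9a lost it in 3, with 0.0965 with close libraries summed, 0.16 without monocyte replicates 1 and 2 together and 0.0581 without lung replicate 3. Itgae lost it without monocyte replicates 3 and 4 together (0.145). Cytotoxic lymphocyte genes were higher in 10 of 17 members (5 without monocyte replicates 1 and 2), plasma cell genes in 3 of 9 with 4 lower, and platelet genes in 2 of 10 with 1 lower. Of all genes 25.3% were higher and 32.1% lower, so the plasma cell and platelet counts do not set these lists apart. Prf1, the perforin of killer lymphocytes, differed by 1.05 ± 0.16 and Ccl5, a chemokine they release, by 0.88 ± 0.16. Sdc1, a plasma cell marker that epithelium shares, differed by −1.24 ± 0.09. Pf4, a chemokine of platelets, differed by 1.94 ± 0.18, while Clec1b, a platelet receptor, was lower (−0.59 ± 0.16, a call lost with close libraries summed, adjusted p = 0.0648, and without monocyte replicates 1 and 2 together, 0.108). Of 8 tested mast cell and basophil genes 5 were higher (1 with the stricter filter), among them Hdc, which makes histamine (1.11 ± 0.12), and Ms4a2, of the IgE receptor, was lower (−2.05 ± 0.40).

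**Figure D4:**
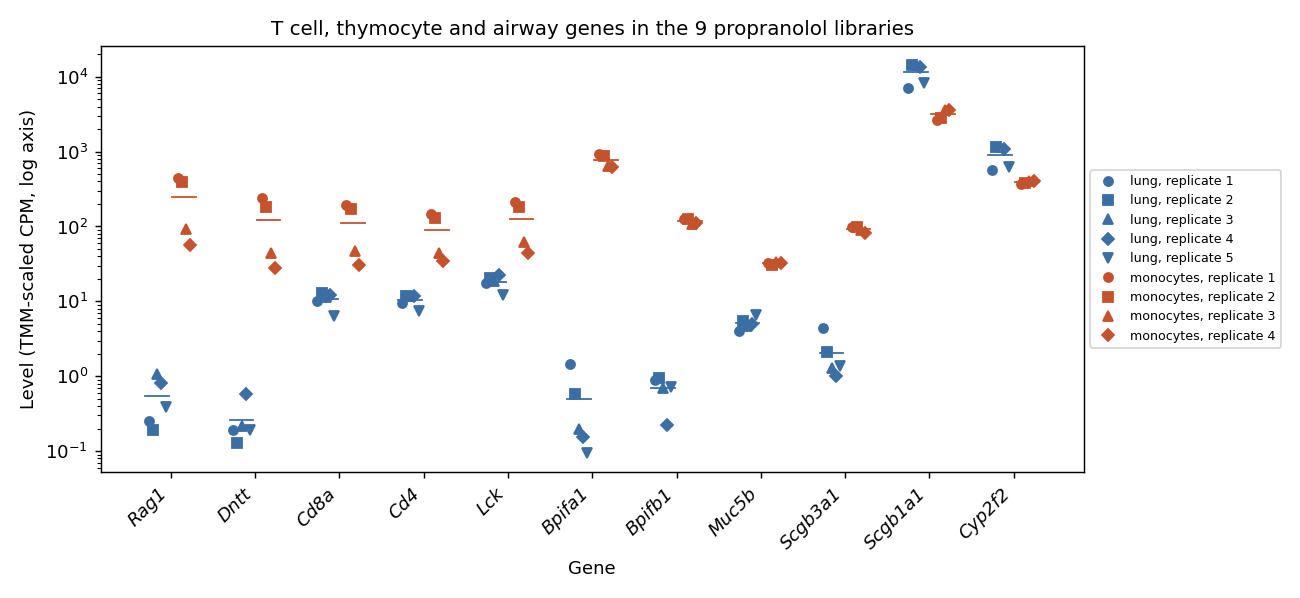
Level of 11 T cell, thymocyte and airway genes (TMM-scaled CPM, log axis) in each lung (blue) and monocyte (orange) library with propranolol. Symbols give the replicate number and bars the group mean. Rag1, Dntt, Cd8a, Cd4 and Lck are higher in monocyte replicates 1 and 2 than in 3 and 4, and Bpifa1 stands at 630.3 to 922 CPM in the monocyte libraries and at 0.0957 to 1.48 CPM in the lungs.

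Airway secretory genes moved both ways. The largest difference among named genes was that of Bpifa1, an antimicrobial protein of the upper airway, at 1.48, 0.576, 0.196, 0.155 and 0.0957 CPM in lung and 922, 871, 638 and 630.3 CPM in the monocyte libraries (10.73 ± 0.52 SE, adjusted p = 6.52e-08). Bpifb1, its relative, stood at 0.222 to 0.959 CPM in lung and 108 to 128 CPM in the monocyte libraries (7.44 ± 0.25 SE, adjusted p = 5.19e-09). Scgb1a1 was lower, at 7158, 14200, 14140, 13390 and 8168 CPM in lung and 2667, 2771, 3582 and 3623 CPM in the monocyte libraries (−1.85 ± 0.23 SE, adjusted p = 6.47e-05), as was Cyp2f2, a cytochrome of club cells (−1.23 ± 0.22 SE, adjusted p = 0.000626). Of 12 genes in this list 5 were higher, all by more than 2-fold, and 6 lower. The other 3 higher members, read after the values were known, were Muc5b, a gel-forming mucin, Scgb3a1, a secretoglobin of the larger airways, and Reg3g, an antimicrobial lectin, with Muc5b at 3.97 to 6.56 CPM in lung and 30.9 to 33.6 CPM in the monocyte libraries.

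Epithelial and stromal genes were mostly lower. Of 13 alveolar type 1 genes 12 were lower, with a median of −2.21. Ager, the receptor of glycation end products that marks these flat gas-exchange cells, stood at 1242, 1340, 1421, 1627 and 1063 CPM in lung and 257, 244, 252 and 260 CPM in the monocyte libraries (−2.40 ± 0.12 SE, adjusted p = 7.37e-08). Cav1, of caveolae, which endothelium shares, did not pass (−0.16, adjusted p = 0.297), except with plain totals (0.0397). Of 14 alveolar type 2 genes 12 were lower and 1 higher, with a median of −1.78. Sftpc stood at 7957, 8334, 9236, 10400 and 6227 CPM in lung against the levels given above in the monocyte libraries (−1.88 ± 0.15 SE, adjusted p = 1.92e-06), and Sftpb, another surfactant protein, differed by −2.09 ± 0.14 (SE, adjusted p = 4.98e-07). The higher member was Cd74, the class II invariant chain, which antigen-presenting leukocytes also make (1.27 ± 0.14 SE, adjusted p = 1.89e-05). All 12 ciliated cell genes were lower (median −1.60), including Foxj1, the master factor of motile cilia (−1.60 ± 0.22 SE, adjusted p = 0.00013), and Dnah5, a motor of the ciliary arm (−2.28 ± 0.30). Smooth muscle and pericyte genes were lower in 10 of 12 members (median −0.95), with Myh11, smooth muscle myosin, at −1.83 ± 0.23, Acta2, smooth muscle actin, at −1.70 ± 0.24 and Rgs5, a pericyte regulator, higher at 1.02 ± 0.19. Of 20 fibroblast and matrix genes 13 were lower and 2 higher (median −0.54). Inmt, a methyltransferase of lung stroma, differed by −1.26 ± 0.14, Npnt, a matrix protein, by −0.89 ± 0.12 and Col3a1, a fibrillar collagen, by −0.54 ± 0.10. The call of Col3a1 was lost with all 18 libraries in 1 fit (adjusted p = 0.0849). The 2 that were higher were Pi16 (0.92 ± 0.21), a marker of adventitial fibroblasts, and Eln, elastin (0.42 ± 0.13), whose call was lost in 7 alternatives (adjusted p 0.0684 with close libraries summed, 0.0512 without monocyte replicate 4 and up to 0.167). Erythroid genes were lower in 5 of 8 members (median −2.25), with the globin gene Hbb-bs at 274 to 702 CPM in lung and 52 to 95.2 CPM in the monocyte libraries, where its near copy Hbb-bt makes the split uncertain. Mesothelial genes were lower in 4 of 8 members (7 with plain totals) and genes of cardiac muscle in 4 of 8, beside 32.1% of all genes.

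Endothelium did not follow the other resident cells. Of its 20 genes 15 were higher and 0 lower, with a median of 0.48 and a summed level of 4689 to 7721 CPM in lung and 8585 to 8800 CPM in the monocyte libraries. Cdh5 stood at 786, 936, 902, 979.9 and 599 CPM in lung, below every monocyte library, a difference of 0.68 ± 0.13 (SE, adjusted p = 0.000976). Pecam1, an adhesion molecule of endothelium that monocytes and platelets also carry, differed by 0.56 ± 0.13 (SE, adjusted p = 0.00346). Vwf, the clotting factor of larger vessels, did not pass (−0.28, adjusted p = 0.135), but was lower without lung replicate 5 (adjusted p = 0.00385) and with plain totals (0.0213). The count was 10 with close libraries summed, 8 without monocyte replicates 3 and 4, and with plain totals 9 higher and 1 lower.

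Melanoma transcripts overlapped between the groups. Tyrp1, an enzyme of pigment synthesis, stood at 1647, 815, 427, 222 and 1907 CPM in lung and 1172, 1251, 1680 and 1743 CPM in the monocyte libraries, a difference of 0.54 ± 0.51 (SE, adjusted p = 0.389). Lung replicates 1 and 5 lay with or above the monocyte libraries and lung replicates 3 and 4 far below. Dct differed by 0.40 ± 0.56 (SE, adjusted p = 0.563), Pmel by 0.77 ± 0.52 (SE, adjusted p = 0.23) and Mlana by 0.29 ± 0.52 (SE, adjusted p = 0.651), and for each the groups overlapped. Of the 15 melanocyte genes 0 were called by edgeR, by DESeq2 or by limma-voom and 0 had an unadjusted p under 0.05, with a median of 0.35. They made up 0.127 to 1.21% of all counts in the lungs and 0.615 to 0.896% in the monocyte libraries, so the shares of the 2 materials overlapped. Cell cycle genes were higher in 11 of 26 members (median 0.80), beside 25.3% of all genes. Top2a, the topoisomerase of dividing cells, stood at 153, 80.4, 58.2, 38.9 and 193 CPM in lung and 289.9, 276, 207 and 199.8 CPM in the monocyte libraries (1.22 ± 0.40 SE, adjusted p = 0.0232). The same lungs were high for melanocyte and cell cycle genes. With libraries left out, the cell cycle count ran from 2 without monocyte replicates 1 and 2 to 23 without lung replicate 5. It was 5 with close libraries summed, 7 without monocyte replicates 3 and 4, 6 and 7 without monocyte replicates 1 and 2 one at a time, 17 without lung replicate 1, and 18 and 19 with all 18 libraries and with limma-voom. With close libraries summed 3979 of all genes were higher, so the cell cycle count there does not set the list apart. Top2a was not called with close libraries summed (adjusted p = 0.0876) or without monocyte replicate 1 or 2 (0.0577 and 0.0537). It was also not called without monocyte replicates 1 and 2 together (0.178) or without 3 and 4 together (0.0513).

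Most glycolysis genes and every listed ribosomal protein gene were higher. Lung replicates 1 and 5, highest for melanocyte genes, were also the lungs with the highest glycolysis, oxidative phosphorylation and ribosomal list sums. Summed glycolysis levels were 4055 and 4386 CPM in those lungs and 2742 to 3251 CPM in the other lungs. The part of melanoma RNA in these lists was not tested. Of 21 glycolysis and hypoxia genes 16 were higher and 2 lower (median 0.81), and 10 were higher with close libraries summed or without monocyte replicates 3 and 4. Aldoa, a glycolytic aldolase, stood at 572, 441, 373, 351 and 637 CPM in lung and 701, 738, 848 and 863 CPM in the monocyte libraries (0.73 ± 0.17 SE, adjusted p = 0.00391), a call lost without monocyte replicates 3 and 4 (adjusted p = 0.0564). Gapdh, another glycolytic enzyme, differed by 0.81 (adjusted p = 0.0436). Its call was lost in 13 of 21 alternatives, among them close libraries summed (adjusted p = 0.136). Vegfa, the endothelial growth factor that alveolar type 1 cells also make, was lower (−1.18 ± 0.12 SE, adjusted p = 1.56e-05), as was Bnip3, a mitochondrial protein induced by low oxygen (−0.29 ± 0.10), whose call was lost in 12 alternatives, among them close libraries summed (adjusted p = 0.135), lung replicate 1, 2 or 3 left out (0.0538, 0.117 and 0.112) and monocyte replicate 1, 2 or 3 left out (0.104, 0.116 and 0.0531). Oxidative phosphorylation genes were higher in 10 of 18 members (median 0.32), beside 25.3% of all genes. That count was 1 with plain totals or without monocyte replicates 3 and 4, 2 without monocyte replicates 1 and 2, 3 with close libraries summed, 5 without monocyte replicate 3 or with the stricter filter, 6 without monocyte replicate 4 and 17 without lung replicate 5. All 25 cytosolic ribosomal protein genes were higher (median 0.65), and Rplp0, of the ribosomal stalk, differed by 0.75 ± 0.11. Near-identical copies make counts of single ribosomal genes uncertain. Complement genes were divided, with 6 of 17 higher and 7 lower, beside 25.3% higher and 32.1% lower of all genes. C4b, an opsonin precursor, was lower (−0.53 ± 0.09), as was Serping1, the inhibitor of the first complement protease (−0.88 ± 0.10).

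Adrb1, the β1-adrenoceptor and a receptor that propranolol blocks, was lower in the sorted libraries. It stood at 59.5, 63.2, 74.9, 84.7 and 53.1 CPM in lung and 42.7, 41.6, 42.8 and 43.2 CPM in the monocyte libraries, a difference of −0.66 ± 0.12 (SE, adjusted p = 0.000916) that did not pass with all 18 libraries in 1 fit (adjusted p = 0.0588). Every lung lay above every monocyte library. Of 22 genes of the adrenoceptor and cAMP pathway 10 were higher and 5 lower (9 lower with plain totals), with a median of 0.11. Of all genes 25.3% were higher and 32.1% lower. Grk2, a kinase that desensitises such receptors, differed by 1.07 ± 0.08 (SE, adjusted p = 1.22e-06) and Prkar1a, a regulatory subunit of protein kinase A, by 0.41 ± 0.07.

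The 10 genes furthest above lung by the rule were Bpifa1, Cxcl2, Dntt, Rag1, Il6, Acod1, Bpifb1, Cxcl1, Fosb and Il1r2. Acod1, the enzyme that makes itaconate in activated macrophages, stood at 0.383 to 1.04 CPM in lung and 109 to 132 CPM in the monocyte libraries (7.46 ± 0.22 SE, adjusted p = 2.33e-09). Il1r2, the decoy receptor of interleukin-1, stood at 0.504 to 1.28 CPM in lung and 80 to 95.4 CPM in the monocyte libraries (6.66 ± 0.21 SE, adjusted p = 3.66e-09). Each of the 10 separated the groups without overlap, but they were picked as the largest differences, so this adds no support. The 10 furthest below were Sfta3-ps, Col4a3, Ndnf, Gramd2, Per3, Hhip, Col4a4, Scnn1g, Scel and Rtkn2. Col4a3 and Col4a4, collagens of the alveolar basement membrane, differed by −3.08 ± 0.15 (SE, adjusted p = 7.37e-08) and −2.89 ± 0.14 (SE, adjusted p = 5.73e-08). Rtkn2, an alveolar type 1 gene, stood at 142, 172, 193, 191 and 134 CPM in lung and 25.3, 24.1, 22.6 and 21.7 CPM in the monocyte libraries (−2.83 ± 0.13 SE, adjusted p = 4.2e-08). Scnn1g, a subunit of the epithelial sodium channel, differed by −2.86 ± 0.15, Hhip, the hedgehog inhibitor, by −2.90 ± 0.22 and Per3, of the circadian clock, by −2.96 ± 0.16.

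The same monocyte-to-lung difference was then set against its untreated counterpart in 1 fit of 18 libraries. Of 20328 genes tested, the difference was higher with propranolol for 5115 (25.2%) and lower for 6558 (32.3%), with a median of −0.17 over all. With no filter the counts were 6069 and 4838, and with close libraries summed 5166 and 3854, with a median of 0.00. Levels in this fit are given as mean ± SD on the scale of the 18 libraries, 5 per lung group and 4 per monocyte group. Tyrp1 averaged 4480 ± 851 CPM in untreated lung, 957 ± 685 in treated lung, 1126 ± 81.4 in untreated and 1438 ± 284 in treated monocyte libraries, and its difference moved by 2.58 ± 0.57 (SE, adjusted p = 0.00101). All 15 melanocyte genes moved up (median 2.43). Without treatment all 15 were lower in the monocyte libraries than in lung (median −2.08), and with propranolol the median was 0.39. All 26 cell cycle genes (median 1.76), all 18 oxidative phosphorylation genes (0.99), all 25 ribosomal protein genes (0.87) and 19 of 21 glycolysis genes (2.05) moved up as well. Gapdh, a glycolytic dehydrogenase, averaged 1354 ± 410 and 308 ± 144 CPM in untreated and treated lung, and 524 ± 20.1 and 555 ± 52.8 CPM in the monocyte libraries (2.22 ± 0.38 SE, adjusted p = 0.000139). For Tyrp1 and Gapdh the lung means lay further apart between treatments than the monocyte means.

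Endothelial and several leukocyte lists moved the other way. All 20 endothelial genes had a lower monocyte-to-lung difference with propranolol (median −1.33, 18 with close libraries summed). Cdh5 averaged 464 ± 80.9 and 821 ± 171 CPM in untreated and treated lung and 1836 ± 72.2 and 1325 ± 29.1 CPM in the monocyte libraries (−1.29 ± 0.20 SE, adjusted p = 5.08e-05). Here both materials moved, lung up and the monocyte libraries down. Of 18 neutrophil genes 13 moved down (median −2.11) and of 10 platelet genes 9 (median −2.62, 4 with the stricter filter). Ccr2 averaged 18.6 ± 3.63 CPM in untreated and 82.2 ± 22.1 CPM in treated lung, but 103 ± 10.9 and 117 ± 12.7 CPM in the monocyte libraries (−1.96 ± 0.25 SE, adjusted p = 1.33e-05). Csf1r moved by −0.73 ± 0.24 (SE, adjusted p = 0.0164), a call lost in 10 alternatives. The adjusted p was 0.201 with close libraries summed, 0.0848 with no filter, 0.0896, 0.0605 and 0.061 without untreated lung replicates 1, 4 and 5, 0.0614 and 0.0726 without treated lung replicates 1 and 4, 0.104 and 0.0949 without untreated monocyte replicates 1 and 2, and 0.0978 without treated monocyte replicate 1. Cd14 did not pass (−0.39 ± 0.25 SE, adjusted p = 0.199), except without lung replicate 2 of the untreated group (adjusted p = 0.00342). Of 17 classical monocyte genes 10 moved down (median −0.73), beside 32.3% of all genes. The count was 3 with close libraries summed (median −0.52) and 6 without filter (median −0.51). Over all genes 3854 moved down with close libraries summed, so there the count does not set the list apart. The classical monocyte count was also 6 without untreated lung replicate 1, untreated monocyte replicate 1 or 2, or treated monocyte replicate 1. The share of counts from melanocyte genes was 1.81 to 2.74% in untreated lung and 0.484 to 0.583% in the untreated monocyte libraries. Its part in the other lists' movements was not tested.

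**Figure D5:**
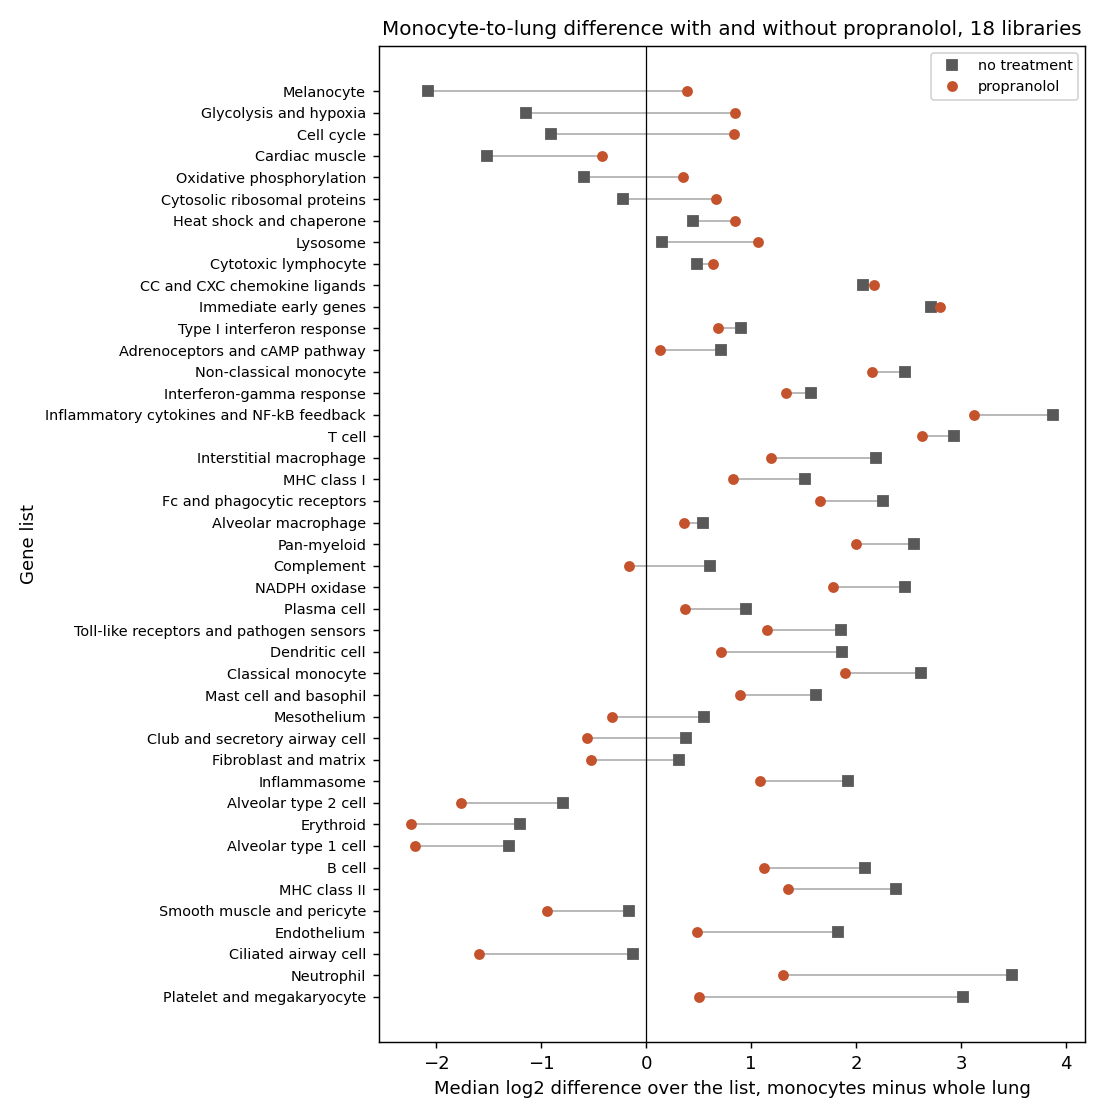
Median log2 difference over each of the 43 lists, monocyte libraries minus whole lung, without treatment (squares) and with propranolol (circles), from the fit of 18 libraries, sorted by the median change of their members. The melanocyte list passes from −2.08 to 0.39, the endothelial list from 1.83 to 0.49, and the immediate early list from 2.71 to 2.80.

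By the rule for single genes in this comparison, Sesn3, a stress-induced regulator of growth signalling, averaged 137 ± 6.73 and 81.3 ± 5.65 CPM in untreated and treated lung and 64.8 ± 4.9 and 86.5 ± 3.32 CPM in the monocyte libraries (1.17 ± 0.09 SE, adjusted p = 5.06e-07). Ddit4, an inhibitor of the same growth pathway, averaged 84.4 ± 14.8 and 33.1 ± 3.34 CPM in lung and 126 ± 10 and 159 ± 6.72 CPM in the monocyte libraries (1.69 ± 0.15 SE, adjusted p = 1.2e-06). Lung was lower and the monocyte libraries higher with treatment in both. Neat1, a long nuclear RNA of paraspeckles, averaged 306 ± 38.2 and 1297 ± 211 CPM in lung and 248 ± 18.2 and 246 ± 3.9 CPM in the monocyte libraries (−2.09 ± 0.15 SE, adjusted p = 4.05e-07). The monocyte means were nearly equal for Neat1. Nfkbiz, a co-factor of NF-kB, averaged 19.5 ± 1.69 and 39.7 ± 1.72 CPM in lung and 369 ± 18.2 and 277 ± 14.4 CPM in the monocyte libraries (−1.44 ± 0.09 SE, adjusted p = 1.18e-07).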

How the data were processed

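The authors deposited raw read counts per gene in 2 tables. That with lung and monocyte libraries was used here. Per the submitters' processing notes, STAR 2.7.9, featureCounts and Subread 2.0.3 were named with build GRCm39. Strand setting and annotation release were not given in the sources used here. Overlapping genes and near-identical copies are therefore uncertain. Of 55416 genes 52083 (94%) matched a symbol. Genes were kept by filterByExpr (minimum count 10), scaled by TMM and tested in edgeR 4.0.16 (R 4.3.3) by quasi-likelihood (glmQLFit, glmQLFTest), and by glmTreat against 2-fold, with Benjamini-Hochberg adjustment. Promoters were matched by symbol; no coordinates of GRCm39 are given. The 43 lists (670 genes), the members and the tests were chosen with earlier results of these data known. Named genes were the 3 markers, 4 melanocyte genes and Adrb1. From each list they were up to 4 most abundant members and up to 3 that went against it. Also named were the 10 largest differences per direction past 2-fold with at least 50 CPM. From the interaction they were the 6 called genes per direction with the smallest p and at least 10 CPM. A further gene that this rule names is not reported here. The scripts were tested on simulated data. Alternatives were other scalings, filters, DESeq2 1.42.0, limma-voom (limma 3.58.1), a replicate block, all libraries in 1 fit and libraries left out; summing or leaving out close libraries and leaving out untreated ones were added after the data were seen.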

Additional observations from a re-analysis of the deposited data

Results flagged for a closer look

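Of 126 groups of values tested for a library far from the others (list sums and named genes, in 4 or 5 libraries), 3 (2.38%) had one, and chance flags about 1 in 20. For Cxcl2, lung replicate 1 stood at 0.693 CPM against 0.174 to 0.287 CPM in the other lungs, and monocyte replicate 2 at 259 CPM against 277 to 279 CPM. For Dntt, lung replicate 4 stood at 0.577 CPM against 0.128 to 0.218 CPM. All 3 gaps are small beside the differences between lung and monocyte libraries.

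The monocyte-to-lung difference was tested between propranolol and no treatment as an interaction, and these genes named by the rule differed. It was higher with propranolol for Sesn3 by 1.17 log2, Eno3 by 1.55, Ddit4 by 1.69, Mfsd13a by 1.72, Def8 by 0.96 and Rdh11 by 1.08. It was lower for Nfkbiz at −1.44 log2, Neat1 at −2.09, Leng8 at −2.38, Zfp57 at −2.68, Adamts15 at −2.56 and Trim30b at −2.56. None of the 12 lost its call in an alternative, but they had been picked for the smallest p, so this adds no support.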

How the results depend on the processing

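Of 183 genes followed through the alternatives and called between monocyte libraries and lung, 143 kept the call in every alternative run and 40 lost it in at least 1. None of the called genes changed sign in an alternative run. Of 24 genes not called, 11 were called in some alternative. Of 18 called interaction genes, 17 kept the call and Csf1r lost it. Of these genes 6 per direction had been picked for the smallest p. The stricter filter, which tests fewer genes, called 3247 higher genes, and by more than 2-fold 557 higher and 751 lower. With close libraries summed, 3854 genes had a lower interaction. Interaction medians rose there from −0.73 to −0.52 for classical monocyte, −0.62 to −0.42 for pan-myeloid and −0.57 to −0.37 for MHC class I genes. With no filter they rose by similar amounts, to −0.51, −0.41 and −0.35. The median over all tested genes, given above, also rose with close libraries summed, so that shift was not particular to these lists. The counts of lower genes move with it, and the cause was not tested. Leaving out 1 library at a time gave 4442 to 5587 higher and 5406 to 6134 lower genes, by more than 2-fold 847 to 967 and 1224 to 1667, and for the interaction 4866 to 6317 and 5054 to 6570. Same-numbered monocyte and lung libraries did not deviate together (correlations −0.214, 0.014, −0.219 and −0.213). Material of 1 animal need not deviate together, so this cannot show whether numbers pair the samples, and the labels do not say. A replicate block gave 5122 higher and 5724 lower genes, by more than 2-fold 855 and 1381, and in the interaction 4808 and 6201. The cell cycle count, 11, was 25 with that block. Signs turned for 10 genes that no fit called in the turned direction (14 values). With plain totals the values were −0.058 for Lyz2, −0.062 for Kit, −0.033 for Myl4, −0.065 for Oasl2, −0.07 for Stat2, −0.01 for Sdha and −0.111 for Adcy7, which was −0.039 with the stricter filter. Without monocyte replicates 3 and 4 they were −0.011 for Lyz2, −0.019 for Adcy7 and −0.008 for Mlana, and without replicates 1 and 2 they were 0.04 for Gata2 and 0.043 for Itgb3. Gata2 ran from −0.179 to 0.018 (without lung replicate 4) when 1 library was left out. Total counts of the 9 libraries ran from 29650148 in lung replicate 2 to 46407803 in monocyte replicate 3. Lung levels under about 1 CPM rest on few counts.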
